A study of Homo sapiens with 2 samples.

Results

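The MYC, MAX and MXD network was followed at the mRNA level in the human gastric cancer line HGC-27, with and without an shRNA against the RNA helicase gene DDX5. Its 10 genes were taken by name from the table of 16021 genes and gene models, through Entrez gene numbers matched to RefSeq symbols, and each was listed: MYC, MYCN, MYCL, MAX, MXD1, MXD3, MXD4, MXI1, MNT and MGA. Cells of both groups were transduced with lentivirus, given puromycin after 48 h and collected 1 week later. The control group carried a non-targeting shRNA and the other group the DDX5 shRNA, each as 1 library of total RNA, so values are set side by side without a test, and the spread between cultures was not measured.

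MYC, MYCN and MYCL encode basic helix-loop-helix leucine zipper proteins that bind DNA only as dimers with MAX, most tightly at the E-box sequence CACGTG, where they activate genes of growth, ribosome production and metabolism. MXD1, MXI1, MXD3, MXD4 and MNT encode proteins that pair with MAX at the same sequence and recruit the SIN3 and histone deacetylase corepressor. MGA is a large MAX partner that scaffolds a variant Polycomb complex. In many tissues MXD1, MXI1 and MXD4 are known from resting or differentiating cells, and MXD3 from cells in S phase.

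Values are FPKM, fragments scaled to transcript length and to library depth, so levels of different genes can be compared per length. The log2 ratio is that of FPKM + 1, DDX5 shRNA over non-targeting shRNA, and the fold printed for a gene is the ratio of its deposited FPKM. Whether genes pass 1.5-fold or 2-fold is always judged on FPKM + 1, so some low genes pass on the deposited FPKM and are not counted, unless deposited FPKM is named. DDX5 itself stood at 170.5 FPKM with the non-targeting shRNA and 50.78 FPKM with its own shRNA, 29.8% of the control level. Steps between low values of short genes corresponded to about 1.42e+07 and 1.41e+07 fragments per library, as rough estimates. Of 7 gastric mucosa markers, 5 were not listed and MUC6 and CLDN18 were at 0.07 FPKM or less. Of 6 epithelial markers, only KRT8 (5.24 and 1.31 FPKM) and CLDN7 (2.36 and 9.84 FPKM) reached 1 FPKM, and they went opposite ways. The 4 fibroblast markers were all at 1 FPKM or more, with sums of 467.65 and 527.69 FPKM. DCN (68.13 and 140.68 FPKM), COL1A2 (2.52 and 6.02 FPKM) and LUM (111.96 and 120.49 FPKM) were higher, and COL1A1 (285.04 and 260.5 FPKM) lower. Of the mesenchymal markers, VIM was at 1583.62 and 1270.59 FPKM, ZEB1 at 14 and 17.13 FPKM, and CDH2 at 0.07 FPKM or less. PECAM1, CDH5, PTPRC and CD3E were not listed. The leukocyte marker CD68 was at 1.29 and 1.02 FPKM. The cells therefore lacked the defining markers of differentiated gastric epithelium in both libraries, and the part that cell makeup plays in the results was not tested.

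MXI1 and MXD1 were the network genes with the highest ratios, and MXD3 the one with the lowest, so the MXD antagonists went both ways. MYC, the most abundant member, was higher with DDX5 shRNA, and MAX, MXD4 and MNT lay slightly above the control. MGA lay below it. Of the 10 members, 8 averaged at least 1 FPKM across the pair of libraries. Of these, 2 were at least 2-fold higher on FPKM + 1 (MXI1 and MXD1, the latter exactly at 2-fold) against 4.19% of 11413 genes past the same filter, and none was at least 2-fold lower, against 2.26%. At 1.5-fold, 3 were higher (MXI1, MXD1 and MYC) against 13.1% of genes, and 1 was lower (MXD3) against 10.1%. The median log2 ratio was 0.34 over the 8 members and 0.024 over all 11413 genes. Of those genes, 5931 had a ratio above 0 and 5455 below 0, or 4942 and 6471 at an equal sum of FPKM in both libraries, and the sign counts of lists are to be read against these.

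After each library was scaled to an equal sum of FPKM, called the same total below, the median of all genes shifted by -0.10. Then MXI1 was at least 2-fold higher and MXD3 at least 2-fold lower. Genes at least 2-fold apart split into 478 higher and 258 lower as deposited, and 379 in each direction at the same total. No member's transcript shared more than 0.748% of its 50-base windows with a transcript of another gene, so division of reads between copies touches these genes little.

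**Figure D1:**
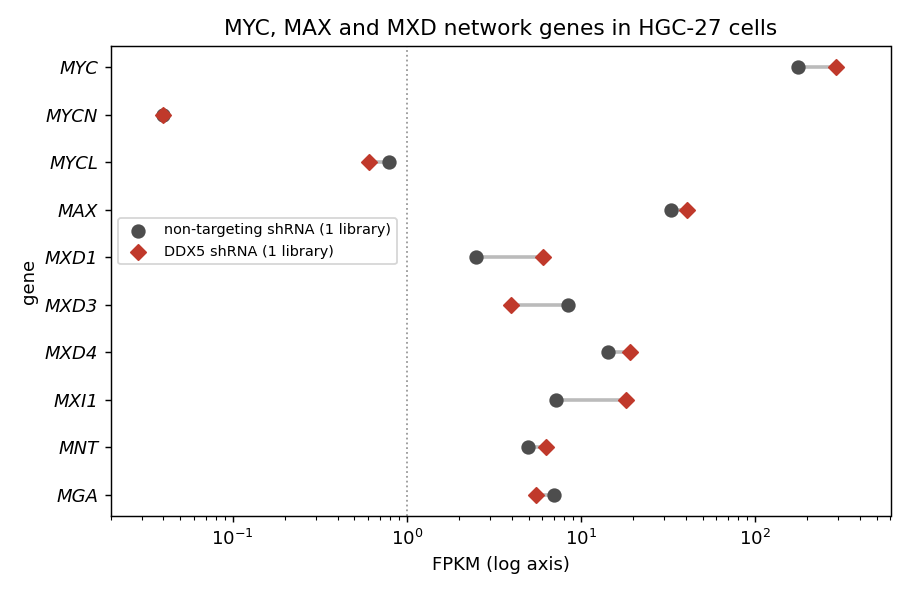
FPKM of the 10 network genes on a log axis, 1 point per library, circles for non-targeting shRNA and diamonds for DDX5 shRNA. The dotted line marks 1 FPKM, MYC lies far to the right of the others at 176.77 and 290.13 FPKM, and the MXD3 diamond (3.96 FPKM) is to the left of its circle (8.38 FPKM) while those of MXD1 and MXI1 are to the right.

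Among the activators, MYC (Entrez gene 4609), the broadly expressed member of the family, stood at 176.77 FPKM with non-targeting shRNA and at 290.13 FPKM with DDX5 shRNA. That is 1.64-fold higher, a log2 ratio of 0.71 that became 0.60 at the same total. MYC ranked 397 by level in the control library and 235 in the DDX5 shRNA library among 16021 rows. Genes with a mean within 2-fold of that of MYC, 479 in number, had log2 ratios with a robust SD of 0.52. The MYC difference was thus larger than 1 robust SD of genes at its level, a spread across genes and not between cultures.

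MYCN (Entrez gene 4613), the family member of neural and embryonic tissue, was at 0.04 FPKM in both libraries, worth about 1.5 fragments each. MYCL (Entrez gene 4610), first known from lung cancer, stood at 0.79 and 0.61 FPKM, worth about 36 and 28 fragments. Neither passed the filter, and a difference in MYCN was not detectable at this depth. MYC therefore made up nearly the whole activator mRNA: the sum of the 3 genes was 177.6 FPKM with non-targeting shRNA and 290.78 FPKM with DDX5 shRNA. In both libraries MYC was also the larger part of the whole network, at 69.3% and 74.3% of the summed FPKM of the 10 genes.

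MAX (Entrez gene 4149), the shared partner of activators and antagonists, had 33.13 FPKM in the control and 40.86 FPKM with DDX5 shRNA, and its log2 ratio was 0.29 (0.18 at the same total). Genes at like level had a robust SD of 0.49, so MAX lay within 1 such SD of 0. The ratio of MYC to MAX mRNA, which no scaling between libraries can move, was 5.34 with non-targeting shRNA and 7.10 with DDX5 shRNA. MAX overlaps FNTB, a farnesyltransferase gene on which counting without strand could draw, and FNTB was listed at 9.31 and 5.52 FPKM, in the other direction from MAX. The read-through gene CHURC1-FNTB, which also overlaps MAX, was listed at 3.27 and 3.58 FPKM, slightly in the same direction, and the part of either in the MAX value was not tested.

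**Figure D2:**
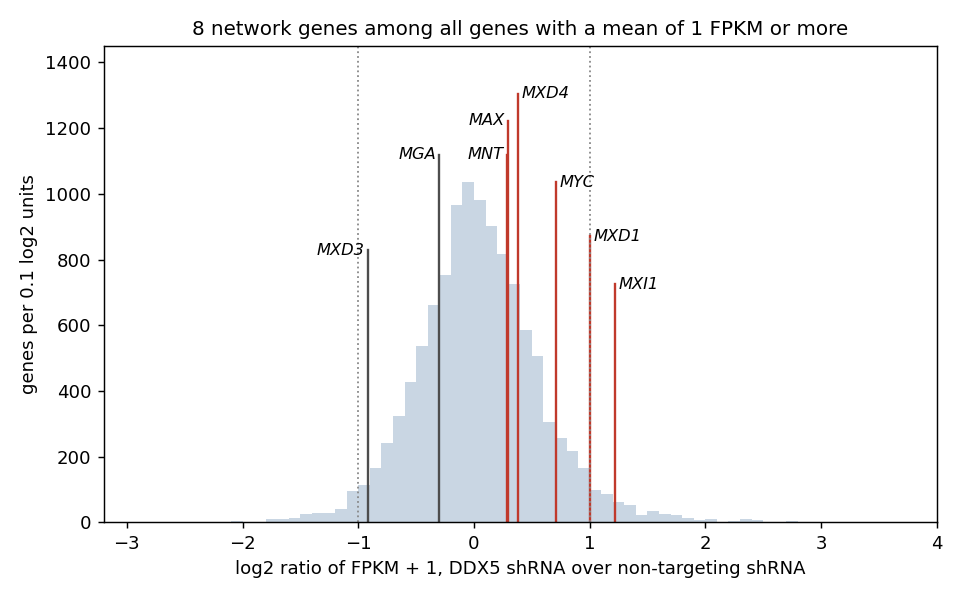
Distribution of log2 ratios of FPKM + 1 over the 11413 genes that average at least 1 FPKM (bars), with the 8 network genes past that filter as vertical lines, whose heights only separate the labels. Dotted lines mark 2-fold; MXI1 (1.22) lies beyond the upper line, MXD1 lies on it (1.0), MXD3 (-0.92) is near the lower line, and MAX, MNT, MXD4 and MGA lie in the body of the distribution.

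Among the antagonists, MXI1 (Entrez gene 4601), also called MXD2, stood at 7.19 FPKM with non-targeting shRNA and 18.04 FPKM with DDX5 shRNA. It was 2.51-fold higher, a log2 ratio of 1.22 (1.11 at the same total), and ranked 279 from the highest of 11413 genes. MXD1 (Entrez gene 4084), which is induced during differentiation of blood and epithelial cells, stood at 2.51 and 6.02 FPKM and was 2.40-fold higher. Its log2 ratio of 1.0 became 0.91 at the same total and 0.55 with a pseudocount of 5. These were the only members above the control by more than 2-fold on the deposited FPKM, and both came from low levels, worth about 353 and 198 fragments in the control library.

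MXD3 (Entrez gene 83463) went the other way, at 8.38 and 3.96 FPKM. The level with DDX5 shRNA was 2.12-fold lower, and the log2 ratio was -0.92, or -1.02 at the same total. MXD3 ranked 341 from the lowest of 11413 genes, and its values were worth about 269 and 127 fragments. Its neighbour PRELID1, a mitochondrial lipid transfer gene that overlaps it, was far more abundant at 295.55 and 227.25 FPKM, also lower with DDX5 shRNA (log2 ratio of -0.38). The strand setting of the counting is not given in the sources used here, and a contribution of PRELID1 reads to MXD3 was not tested.

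MXD4 (Entrez gene 10608) was the most abundant antagonist in both libraries, at 14.39 and 19.02 FPKM, a log2 ratio of 0.38 (0.27 at the same total). MNT (Entrez gene 4335), which is expressed in cycling and resting cells alike, had 4.99 and 6.3 FPKM and a log2 ratio of 0.29. MGA (Entrez gene 23269) had 6.98 and 5.49 FPKM and a log2 ratio of -0.30. Each of these 3 lay within 1 robust SD of the genes at its level (0.45, 0.46 and 0.45), so they cannot be told from the common spread of ratios in this pair of libraries.

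By level, the order in the control library was MYC, MAX, MXD4, MXD3, MXI1, MGA, MNT, MXD1, MYCL and MYCN. With DDX5 shRNA it was MYC, MAX, MXD4, MXI1, MNT, MXD1, MGA, MXD3, MYCL and MYCN. The first 3 and the last 2 places were the same in both libraries. MXD3 moved from the second place among the antagonists to the last, and MXI1 from the third to the second. With 1 library per group, neighbours in these orders could not be separated from the spread between cultures.

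The make-up of MXD mRNA differed accordingly. MXD3 contributed 25.8% of the summed FPKM of the 4 MXD genes with non-targeting shRNA and 8.42% with DDX5 shRNA. MXI1 went from 22.1% to 38.4%, MXD1 from 7.73% to 12.8%, and MXD4 from 44.3% to 40.4%. The MXD3 share was thus smaller and those of MXI1 and MXD1 larger with DDX5 shRNA, and MXD4 had the largest share in both libraries. Within a library, the MXI1 level was 0.858 times that of MXD3 in the control and 4.56 times with DDX5 shRNA, and the ratio of MXD1 to MXD3 went from 0.300 to 1.52.

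**Figure D3:**
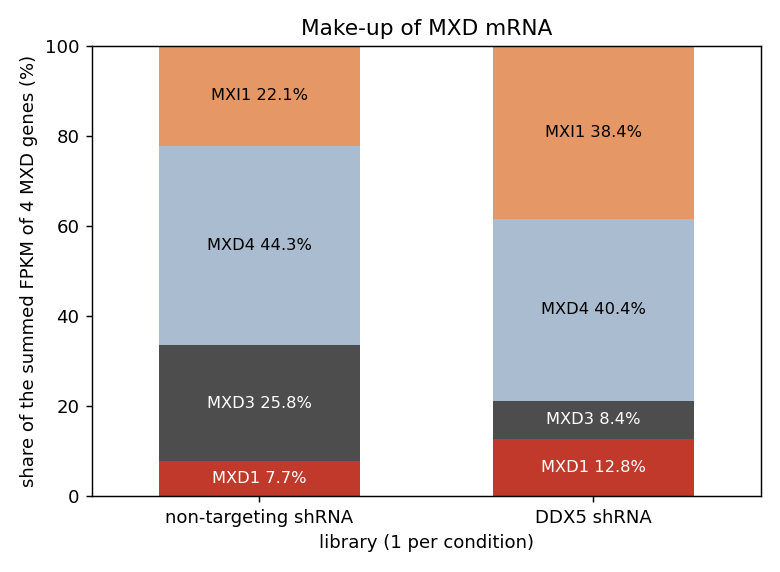
Share of each gene in the summed FPKM of MXD1, MXD3, MXD4 and MXI1, in percent, 1 bar per library. The MXD3 segment is 25.8% of the control bar and 8.42% of the DDX5 shRNA bar, and the MXI1 segment 22.1% and 38.4%.

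Summed over the 6 antagonists, mRNA was 44.44 FPKM with non-targeting shRNA and 58.83 FPKM with DDX5 shRNA, 1.32-fold higher. The activator sum was 1.64-fold higher, so the ratio of activator to antagonist mRNA went from 4.0 to 4.94. Antagonist mRNA relative to MAX was 1.34 and 1.44. Activator mRNA exceeded antagonist mRNA in both libraries, and the excess was larger with DDX5 shRNA. It rests on MYC: without MYC and MXD4, the highest gene of each side, the ratio was 0.591 times that of the control. The activator side is then only MYCL and MYCN, both below the filter, so that value rests on genes near the floor. These are mRNA levels, and protein was not measured.

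RefSeq promoter windows (assembly GRCh38.p14) were available for 9 of the 10 members, with no entry for MYC, in 14 windows. The 250 bases before each gene start were searched for CACGTG, which reads the same on both strands. MXD4 and MNT held it, and the other 7 members did not. The share was 11.6% of 9279 genes past the filter with a window, and 6.34% of all 35116 windows. The 2 promoters with an E-box are shown first, with the E-box in capitals, and then those of the 3 antagonists with the largest differences, which hold none in this stretch.
MXD4 promoter, chr4:2262110-2262359, minus strand: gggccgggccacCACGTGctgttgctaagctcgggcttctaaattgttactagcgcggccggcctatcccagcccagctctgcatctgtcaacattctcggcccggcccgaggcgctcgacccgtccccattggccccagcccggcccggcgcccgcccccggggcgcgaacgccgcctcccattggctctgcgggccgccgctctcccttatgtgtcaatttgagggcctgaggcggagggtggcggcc
MNT promoter, chr17:2401061-2401310, minus strand: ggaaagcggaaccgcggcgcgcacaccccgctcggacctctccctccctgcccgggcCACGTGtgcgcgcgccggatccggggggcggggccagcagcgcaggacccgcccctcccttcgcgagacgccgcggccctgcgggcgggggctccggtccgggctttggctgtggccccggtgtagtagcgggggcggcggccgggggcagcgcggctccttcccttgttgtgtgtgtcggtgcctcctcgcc
MXD1 promoter, chr2:69914859-69915108, plus strand: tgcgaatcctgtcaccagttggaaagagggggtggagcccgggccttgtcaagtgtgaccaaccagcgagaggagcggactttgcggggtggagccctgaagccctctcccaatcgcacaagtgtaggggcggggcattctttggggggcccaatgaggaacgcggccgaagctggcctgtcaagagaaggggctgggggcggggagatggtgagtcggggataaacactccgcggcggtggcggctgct
MXI1 promoter, the first of 3 starts, chr10:110207355-110207604, plus strand: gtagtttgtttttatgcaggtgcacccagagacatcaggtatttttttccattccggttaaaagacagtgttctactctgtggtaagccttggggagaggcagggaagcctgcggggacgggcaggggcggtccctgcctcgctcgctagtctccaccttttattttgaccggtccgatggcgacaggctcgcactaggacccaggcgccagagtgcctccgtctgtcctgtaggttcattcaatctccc
MXD3 promoter, chr5:177312753-177313002, minus strand: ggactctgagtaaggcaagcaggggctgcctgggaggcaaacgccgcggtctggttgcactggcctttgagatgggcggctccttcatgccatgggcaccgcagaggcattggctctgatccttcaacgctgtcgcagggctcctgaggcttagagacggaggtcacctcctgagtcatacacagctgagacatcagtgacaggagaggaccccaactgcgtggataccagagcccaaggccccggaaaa

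The E-box of MXD4 begins 238 bases before the gene start and that of MNT 193 bases before it. Their log2 ratios, 0.38 and 0.29, lay between those of MXD3 (-0.92) and MXI1 (1.22), whose printed stretches hold no CACGTG. A match describes these letters only and is not evidence of binding.

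MLX is the second hub of the extended network, a MAX-like protein that pairs with the glucose-responsive Mondo factors MLXIP and MLXIPL and also with MXD1, MXD4 and MNT. MLX had 40.42 and 29.77 FPKM and a log2 ratio of -0.43, and MLXIP, which encodes MondoA, at 6.2 and 3.96 FPKM, a log2 ratio of -0.54. MLXIPL was at 0.31 and 0.65 FPKM, below the filter. The pair of arrestin-like genes that MondoA and MLX activate stood above the control, with TXNIP at 14.33 and 127.83 FPKM and ARRDC4 at 6.75 and 15.86 FPKM. Both MLX and MLXIP thus lay lower with DDX5 shRNA while those 2 target genes lay higher. MAX lay on the other side of the control from MLX, but both differences were small. Genes at the level of MAX, which is close to that of MLX, had a robust SD of 0.49. The log2 ratios of MLX and MAX were both smaller in size than that.

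Cofactors of the network differed less than MXI1, MXD1 and MXD3 did, though some differed more than MXD4. Among 18 cofactors of MYC activation, 14 had a ratio below 0 (5455 of 11413 genes did) and none was 2-fold apart on FPKM + 1, with a median of -0.16. On that scale, 2 were at least 1.5-fold lower (10.1% of all genes were) and 1 at least 1.5-fold higher (13.1%). The lower ones were the remodelling factor gene BPTF (14.99 and 9.07 FPKM) and the MYC-binding cofactor gene HCFC1 (25.11 and 16.3 FPKM). ACTL6A, an actin-related subunit, had a log2 ratio of -0.56, and the scaffold gene TRRAP was typical at 10.14 and 9.15 FPKM. SMARCB1, also typical, stood at 78.05 and 68.16 FPKM.

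In the SIN3 corepressor list, through which MXD proteins and MNT act, none of 18 genes was 1.5-fold apart on FPKM + 1. Of all genes, 13.1% were at least 1.5-fold higher and 10.1% lower. At the same total, 1 of the 18 was at least 1.5-fold lower. As deposited, the median was -0.10 and 13 of the 18 had a ratio below 0. SIN3A, the main scaffold, stood at 20.51 and 19.02 FPKM and the deacetylase gene HDAC2 at 21.03 and 20.75 FPKM. SAP30 (log2 ratio of -0.48), SIN3B (0.37), BRMS1 (-0.34) and RBBP7 (-0.28) lay farthest from 0. The corepressor mRNAs thus lay closer to the control than MXD1, MXI1 or MXD3 did.

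The Polycomb complex that holds MGA and MAX had a median of -0.022 over 11 subunit genes, with 5 above 0 and 6 below. TFDP1, the dimer partner of E2F factors, was the 1 gene at least 1.5-fold lower (10.1% of all genes were), at 67.7 and 40.66 FPKM. PCGF6, the subunit that defines the complex, had a log2 ratio of -0.49, CBX3 of -0.41 and RING1 of 0.41, and CBX1 was typical at 112.9 and 111.14 FPKM. Of 14 germline genes known to be silenced by this complex in other cells, 6 were not listed and 5 lay below the filter. The remaining 3 had ratios above 0. TDRKH, a piRNA pathway gene, stood at 3.27 and 8.68 FPKM, SYCE2 at 3.68 and 6.02 FPKM and STAG3 at 1.79 and 2.96 FPKM, the last with 11.1% of its windows shared with its copies. The meiotic and germ cell genes SYCP3, DDX4, SMC1B, TAF7L and MEI1 were all at 0.21 FPKM or less in both libraries, so low expression of germline genes was common to both.

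Regulators of MYC protein stability spread widely. Of 22 genes, 4 were at least 2-fold lower on FPKM + 1 (SKP2, AURKA, PLK1 and CIP2A), against 2.26% of all genes. None was 1.5-fold higher on that scale, against 13.1% of all genes, and the median was -0.11. SKP2, a ubiquitin ligase subunit that acts on MYC and on p27, stood at 58.31 and 24.77 FPKM. The mitotic kinase genes AURKA (55.79 and 23.8 FPKM) and PLK1 (103.32 and 45.79 FPKM), whose products stabilise MYC family proteins, and CIP2A (20.34 and 8.68 FPKM), which shields MYC from the phosphatase PP2A, were lower by similar ratios. FBXW7, the ligase subunit that recognises phosphorylated MYC, was at 2.91 and 3.05 FPKM. STUB1 and TRIM32 were typical of the list, with log2 ratios of -0.13 and -0.09. All 4 of the lower genes are also known as genes of proliferating cells.

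Factors that act on the MYC gene or on its mRNA had a median of -0.11 over 17 genes, with 12 below 0. HNRNPD, which encodes the AU-rich element binding protein AUF1, stood at 367.95 and 151.85 FPKM. It was the 1 gene at least 2-fold lower (2.26% of all genes were). FUBP1 and PUF60, a DNA-binding activator of MYC and its repressor partner, had log2 ratios of -0.68 and -0.62, and ELAVL1, which encodes the RNA-binding protein HuR, of -0.60. CDK7 and IGF2BP3 were typical at -0.11 and -0.06. None was at least 1.5-fold higher on FPKM + 1 (13.1% of all genes were), while MYC mRNA itself was. PVT1 was not analysed here.

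Genes known as activated by MYC were mostly lower with DDX5 shRNA, although MYC mRNA was higher. Of 71 such genes past the filter, 60 had a ratio below 0 (62 at the same total). Of the 71, 26 were at least 1.5-fold lower (10.1% of all genes were) and 4 at least 1.5-fold higher (13.1%). The median log2 ratio was -0.48, against 0.024 for all genes. On the lower side, SORD, a polyol pathway enzyme, stood at 70.35 and 22.74 FPKM, and the mitochondrial chaperonin gene HSPE1 at 454.54 and 161.54 FPKM. The replication helicase gene MCM4 stood at 84.88 and 31.2 FPKM and the ribosome biogenesis gene UTP20 at 11.96 and 3.89 FPKM. DCTPP1, MCM5, TMEM97 and HSPD1 completed the 8 genes at least 2-fold lower (2.26% of all genes were). RRP12 and BOP1, both ribosome assembly factors, were typical, at 37.3 and 26.41 FPKM and at 51.85 and 36.84 FPKM.

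The nucleolar genes NCL (1051.81 and 669.79 FPKM) and NPM1 (3294.35 and 2251.17 FPKM) had log2 ratios of -0.65 and -0.55. NPM1 shares 44.4% of its windows with other transcripts, mostly of pseudogenes, HSPE1 27.5% and SORD 33.3%, so their values depend on how reads were divided. The E-box targets ODC1, the first enzyme of polyamine synthesis (228.54 and 252.6 FPKM), and CDK4 (98.93 and 119.93 FPKM) did not share the lower levels. AIMP2, SHMT2, CCND2 and SLC7A5 were the 4 genes at least 1.5-fold higher, with log2 ratios of 1.29, 1.0, 0.95 and 0.76. AIMP2 is a scaffold of the tRNA synthetase complex, SHMT2 a mitochondrial serine enzyme, CCND2 a D-type cyclin and SLC7A5 an amino acid transporter.

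MCM4, MCM5, HSPD1 and HSPE1 are also genes of DNA replication and heat shock. Without them the median of the MYC-activated list was -0.47 over 67 genes, with 22 at least 1.5-fold lower, and 4 genes remained at least 2-fold lower. Without the 12 genes that share over 10% of their windows with other transcripts it was -0.46 over 59 genes, with 20 and 5 at those limits. Both exclusions were chosen after the data were seen. CACGTG was present in the 250 bases before the start of 20 of 57 listed genes with a window (35.1%, against 11.6% of genes past the filter). The median log2 ratio was -0.45 for those 20 genes and -0.47 for the 37 without it, and this difference was not tested.

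**Figure D4:**
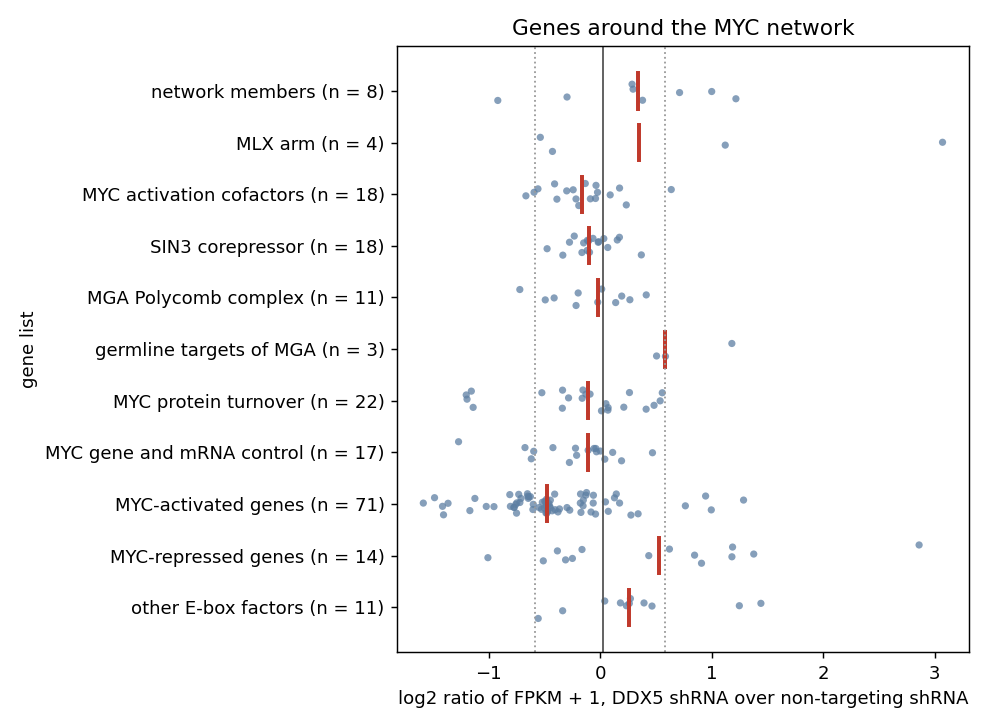
Log2 ratios of FPKM + 1 for the network members and 10 gene lists around the network, 1 point per gene past the filter and a red bar at each list's median. The solid vertical line is the median of all genes (0.024) and dotted lines mark 1.5-fold; the median of the MYC-activated list (-0.48) lies to the left of the other medians, and the MYC-repressed list (0.53) is spread widely.

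Genes known as repressed by MYC went both ways, with 8 of 14 above 0 and 6 below and a median of 0.53. On FPKM + 1, 7 were at least 1.5-fold higher (13.1% of all genes were) and 1 at least 1.5-fold lower (10.1%). Of the 7, CDKN1C (0.3 and 1.96 FPKM) passed the filter only through its level in the DDX5 shRNA library. CDKN1A, which encodes the cell cycle inhibitor p21, was at 3.72 and 11.26 FPKM, and CDKN1B, the p27 inhibitor, at 30.46 and 55.56 FPKM. The stress genes DDIT3 (10.44 and 82.1 FPKM) and GADD45A (19.16 and 44.72 FPKM) had log2 ratios of 2.86 and 1.18. BTG2 was typical of the list at 4.14 and 5.95 FPKM. NDRG2 was that lower gene, at 11.65 and 5.29 FPKM, and THBS1, at 1.38 and 0.67 FPKM, was also past 1.5-fold on the deposited FPKM. MYC and several genes it is known to repress were therefore higher in the same library. With the genes averaging 5 FPKM or above the median was 0.85, and with no filter 0.14.

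Other bHLH factors that bind CACGTG were mostly slightly higher, with a median of 0.26 and 9 of 11 above 0, or 8 at the same total. TFE3, a lysosome and stress factor, stood at 11.01 and 15.57 FPKM, SREBF1 at 71.6 and 86.57 FPKM and MITF at 5.56 and 6.86 FPKM. USF1 lay lower, at 21.97 and 17.18 FPKM. The circadian factors went both ways. CLOCK, the dimer partner of BMAL1, had the lowest ratio of the list at 5.56 and 3.46 FPKM (log2 ratio of -0.56), and BHLHE40 stood at 12.02 and 12.39 FPKM. In contrast, BMAL1 (2.52 and 7.36 FPKM) and BHLHE41 (0.83 and 3.97 FPKM) were the 2 members at least 2-fold higher (4.19% of all genes were), both from low levels. Of these, BHLHE41 passed the filter only through its level in the DDX5 shRNA library. The log2 ratios of BMAL1 and BHLHE41 were 1.25 and 1.44, against 1.22 for MXI1. On the deposited FPKM, BMAL1 was 2.92-fold, BHLHE41 4.78-fold and MXI1 2.51-fold higher. Apart from BMAL1 and BHLHE41, no gene of the list was 1.5-fold apart on FPKM + 1.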

How the data were processed

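RNA from HGC-27 cells with a non-targeting shRNA or a DDX5 shRNA was sequenced with Illumina chemistry as 1 library per group, as the labels' protocols say. FPKM values were deposited by the authors as 1 table with 2 decimals and 1 column per library, per the file headers. RSEM 1.2.8, Bowtie2, HISAT and build hg19 appear in the submitters' processing notes, without roles. For annotation and strand, nothing is given in the sources used here. Columns were matched to groups by sample title, and 15289 of 16021 rows to symbols by RefSeq (GRCh38.p14), used for names, overlaps and promoters only.

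Scripts ran under Python 3.11.15 with pandas 2.3.3, numpy 2.4.6 and matplotlib 3.10.9. Log2 ratios use a pseudocount of 1, which understates differences of low genes. Counts and medians use the 11413 genes whose mean over both libraries reached 1 FPKM. No test was run, since each group has 1 library. A robust SD is the scaled median absolute deviation of log2 ratios over genes whose mean lies within 2-fold. Shared sequence was taken from 50-base windows, every 10 bases, of the longest coding GENCODE v29 transcript. The table gives no depth. Among short genes with 1 coding transcript, 70.5% of 166 and 68.8% of 170 fell within 0.15 of a whole fragment at the best-fitting depth, against 30% for a fixed step, a level that choosing the best step raises. Fragment numbers are approximate.

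The members and the 10 lists were chosen with earlier results of these data known. Named genes are the members, DDX5, up to 4 of each list with the largest absolute log2 ratio and up to 2 nearest its median, among genes averaging 5 FPKM or above (1 FPKM where under 2 genes do), and always MLX, MLXIP, TXNIP, ODC1, CDK4, NCL, NPM1, CDKN1A, FBXW7, SKP2, SIN3A, HDAC2 and PVT1. Others were chosen after their values were seen: the members that make up a small count, overlapping genes, BMAL1, BHLHE41, CLOCK, BHLHE40, THBS1, CDKN1C and germline genes at low level. A gene named by the rule is not reported here. A protein comparison of the members was planned and not run. Ratios, counts and scalings were tested on simulated data.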

Additional observations from a re-analysis of the deposited data

How the results depend on the processing

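No paired analysis was possible because each group has 1 library and the result comes from no test. The settings tried were other pseudocounts (0.1 and 5), other filters (none, or an average of 5 FPKM), the same total, and ratios centred on their median or their 30% trimmed mean. All 67 alternative log2 ratios of single members moved by less than the robust SD of genes at like level, and no list median changed sign. For single members much of this was fixed in advance. Filters leave a single ratio as it is, and either centring subtracts the same small amount from all ratios. Of members at least 2-fold higher there were 0 with a pseudocount of 5, and 1 with the filter at 5 FPKM, under the same total and under either centring. Of members at least 2-fold lower there was 1 with a pseudocount of 0.1 and at the same total, and at least 1.5-fold lower 0 with a pseudocount of 5. Without MYC the activator sum was 0.783 times the control, and without MYC and MXD4 the activator to antagonist ratio 0.591 times, both in the other direction. In both, the activators left are MYCL and MYCN, which lie below the filter. With a pseudocount of 0.1, genes at least 1.5-fold lower were 1 in the MLX list, 2 in the MYC-repressed list and 1 in the E-box factor list, and genes at least 1.5-fold higher were 2 in the turnover list and 1 in the MYC gene control list. With a pseudocount of 5, genes at least 2-fold higher were 1 in the MLX list, 0 in the germline list, 2 in the MYC-repressed list and 0 in the E-box factor list, the MYC-repressed list had 0 at least 2-fold lower, the activation cofactors 0 at least 1.5-fold higher and 0 lower, and the germline list 1 at least 1.5-fold higher. Under the same total, genes at least 1.5-fold lower were 1 in the MLX list, 1 in the SIN3 list, 2 in the Polycomb list and 1 in the E-box factor list, and genes at least 1.5-fold higher were 0 among activation cofactors and 1 in the germline list. The germline list also had 1 such gene under either centring and at 5 FPKM, where the E-box factor list had 0 at 1.5-fold and 0 at 2-fold. The germline median of 0.58 over 3 genes was 0.34 with a pseudocount of 5, 0.16 with no filter and 1.18 at 5 FPKM. Genes at least 2-fold lower in the MYC-activated list were 4 without MCM4, MCM5, HSPD1 and HSPE1, and 5 without genes of shared sequence. Where fewer genes were tested or a pseudocount was larger, counts fell by construction. A smaller pseudocount enlarges ratios, most for low genes, and the same total and either centring move ratios downward. The other counts therefore also moved by construction. Depth limits MYCN and MYCL most.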
